A study of Mus musculus with 8 samples.

Results

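The class IIa histone deacetylases Hdac4, Hdac5, Hdac7 and Hdac9, the co-repressor Dach2, and Runx1, Ncam1 and Gadd45a, whose transcripts are used as signs of denervation in muscle, were followed in quadriceps femoris (QF) of mice with a skeletal muscle knockout of Grpel1. These 8 genes were taken by their symbols from the 14012 genes of the deposited table, and all 8 were present. RNA came from 4 mice labelled Grpel1 skm -/- and from 4 control mice, 1 library per mouse. The controls are titled Grpel1 flox/flox control mice and are also labelled wild type (WT). In the knockout, Cre recombinase is made under the human α-skeletal actin promoter and is activated by tamoxifen, so that the floxed Grpel1, which encodes a co-chaperone of mitochondrial protein import, is deleted in muscle fibres and not in the other cells of the muscle. Tamoxifen was started at 5 weeks of age, on 5 consecutive days, and the mice reached their end point within 5 weeks. The study's controls carry Grpel1 flox/flox, and whether those sequenced carried Cre or were given tamoxifen is not stated. Any effect of Cre or of tamoxifen thus cannot be told apart from that of the knockout.

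Class IIa histone deacetylases have little catalytic activity of their own. They bind MEF2 factors on DNA and bring co-repressors to them, and they leave the nucleus when kinases phosphorylate them and Ywha adaptor proteins hold them in the cytoplasm. In muscle that loses its nerve, Hdac4 is known to accumulate and to repress Dach2. Dach2 in turn represses Myog, whose product, the transcription factor myogenin, switches on the genes of the acetylcholine receptor and of the muscle ubiquitin ligases Fbxo32 and Trim63. Runx1, Ncam1 and Gadd45a are also known to rise in denervated fibres. These RNA libraries measured transcripts alone, and neither protein level, phosphorylation nor innervation was measured in them.

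To show the sequence before the genes that moved, the 250 bases upstream of RefSeq starts (GRCm38.p6) were read for Hdac4, Dach2, Runx1, Gadd45a and Myog. Capitals mark matches to CANNTG (the E-box, bound by myogenic factors such as myogenin), TGTGGT (the core motif of Runx factors) and TGATGNAA (a composite motif of Atf4), searched on both strands, and no matches overlap in the windows shown. The windows were chr1:92180342-92180591 on the minus strand for Hdac4, chrX:113297260-113297509 and chrX:113298006-113298255 on the plus strand for the 2 listed starts of Dach2, chr16:92826075-92826324 on the minus strand for the first start of Runx1, chr6:67037408-67037657 on the minus strand for Gadd45a and chr1:134289754-134290003 on the plus strand for Myog.
Hdac4: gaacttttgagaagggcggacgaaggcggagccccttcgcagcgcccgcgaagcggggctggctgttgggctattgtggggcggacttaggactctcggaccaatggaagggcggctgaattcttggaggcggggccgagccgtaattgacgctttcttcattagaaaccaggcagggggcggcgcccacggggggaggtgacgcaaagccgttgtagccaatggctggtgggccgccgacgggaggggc
Dach2, first start: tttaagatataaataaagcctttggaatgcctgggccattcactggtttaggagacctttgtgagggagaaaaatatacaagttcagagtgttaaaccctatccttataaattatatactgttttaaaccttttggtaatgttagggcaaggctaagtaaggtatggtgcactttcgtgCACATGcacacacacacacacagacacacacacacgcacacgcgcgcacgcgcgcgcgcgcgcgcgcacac
Dach2, second start: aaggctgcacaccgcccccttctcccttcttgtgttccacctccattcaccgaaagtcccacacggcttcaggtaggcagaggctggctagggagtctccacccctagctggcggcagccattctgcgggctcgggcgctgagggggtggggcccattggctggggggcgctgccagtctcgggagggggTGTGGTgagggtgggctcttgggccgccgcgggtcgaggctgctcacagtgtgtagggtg
Runx1, first start: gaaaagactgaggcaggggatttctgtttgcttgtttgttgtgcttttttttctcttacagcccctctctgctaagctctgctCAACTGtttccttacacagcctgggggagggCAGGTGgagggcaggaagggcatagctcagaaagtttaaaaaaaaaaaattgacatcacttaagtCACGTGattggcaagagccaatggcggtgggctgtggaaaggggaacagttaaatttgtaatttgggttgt
Gadd45a: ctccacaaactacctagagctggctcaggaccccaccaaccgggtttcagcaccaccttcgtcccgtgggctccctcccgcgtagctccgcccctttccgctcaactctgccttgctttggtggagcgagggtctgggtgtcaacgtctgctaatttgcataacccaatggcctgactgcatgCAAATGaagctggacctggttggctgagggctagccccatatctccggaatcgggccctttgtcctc
Myog: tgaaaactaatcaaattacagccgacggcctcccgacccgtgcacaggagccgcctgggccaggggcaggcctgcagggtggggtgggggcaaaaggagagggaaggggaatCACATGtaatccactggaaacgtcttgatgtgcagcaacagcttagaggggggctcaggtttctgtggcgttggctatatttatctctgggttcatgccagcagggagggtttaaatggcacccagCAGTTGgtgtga
The window of Hdac4 held no match. That of the first start of Runx1 held 3 E-boxes, the nearest 71 bases before the start, and the first start of Dach2 and that of Gadd45a held 1 each, at 71 and 67 bases. The second listed start of Runx1, not shown, held 0 matches. The second start of Dach2 held TGTGGT 60 bases upstream, and Myog held E-boxes at 138 and 12 bases. Of the 8 genes, 7 had windows in the RefSeq table. An E-box stood in 7 of their 13 windows and in 66.2% of all 32851 windows of this length. TGTGGT was found in 1 of the 13 (14% of all windows) and TGATGNAA in 0 (3.45% of all windows). A match is a string of letters and does not show that a factor was bound.

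The libraries held 16017565 to 20361144 counts on the genes of the table. Levels are given as CPM, the counts of a gene scaled to a common library size, with sizes adjusted for composition by edgeR's TMM factors, and 3 counts, the limit that a count of 0 allows, were worth 0.119 to 0.242 CPM (counting error only). A gene was called where edgeR's quasi-likelihood test gave a Benjamini-Hochberg adjusted p under 0.01 over all genes. The whole-gene count of Grpel1 did not differ between the labels (68.4 ± 3.04 and 65.3 ± 6.11 CPM, SD, n = 4 each, adjusted p = 0.49, and a log2 fold change of 0.61 with library totals alone, adjusted p = 0.00017), so each direction rests on the labels of the libraries. The summed level of 8 muscle fibre markers, mostly Myh4 and Acta1 in controls, was 70662 to 99553 CPM in the libraries labelled knockout and 192881 to 246568 CPM in controls. Of the 8, 5 were called lower, where 21.1% of all genes were. Myh1 (1.15) and Des (0.82) were called higher on the log2 scale, as were 23.6% of all genes, and Myh2 was not called. With library totals alone in place of TMM factors, the log2 fold change of the median gene moved from 0.065 to 0.73, a shift of 0.67, and the calls over all genes went from 3303 higher and 2962 lower to 8498 higher and 873 lower. Log2 fold changes below are relative to TMM-scaled libraries, and where the sign of a named gene turns without the factors, this is said beside it.

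Of the 8 genes, 5 were called, where 44.7% of all genes were. Runx1, Ncam1 and Gadd45a were higher in the knockout libraries (3 of 8, against 23.6% of all genes), while Hdac4 and Dach2 were lower (2 of 8, against 21.1%). The same 5 genes had groups that did not overlap in CPM, as did 53.4% of all genes, 29% with the knockouts higher and 24.4% with them lower. The median log2 fold change of the 8 genes was 0.091 and that of all genes 0.065. The share of called genes was thus close to the background. By size of change, 11 genes of the table had a lower log2 fold change than Dach2, whose knockout libraries held 6 counts in all. A higher one than that of Runx1 was found for 162 genes, than that of Ncam1 for 164 and than that of Gadd45a for 317. In contrast, 1143 genes lay below Hdac4. The 8 genes were chosen with earlier results of these data known, so these ranks are a description and no test.

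**Figure D1:**
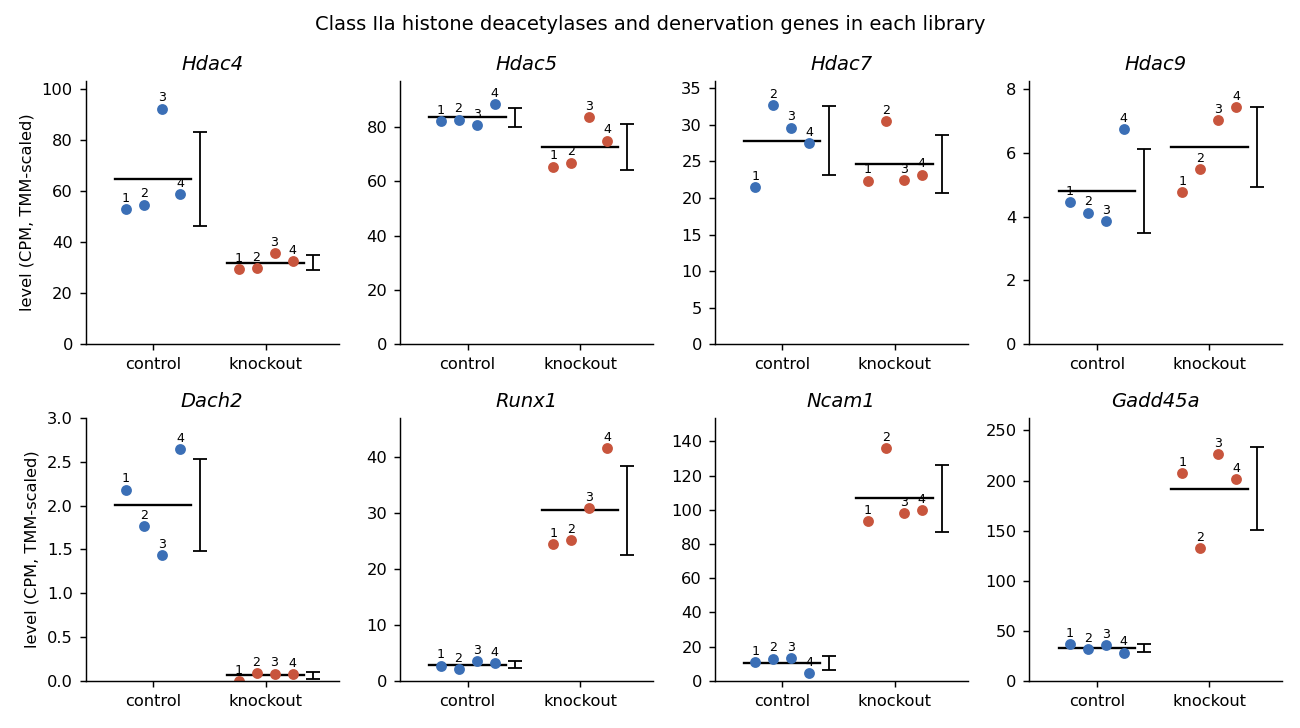
Level of each of the 8 genes in each library, in CPM over TMM-scaled library sizes (y axis, from 0, with its own scale per gene), for control (blue) and knockout (red) mice. Points are libraries with their replicate number, the horizontal line is the mean and the bar beside it the SD (n = 4). Dach2 lay at 0 to 0.0916 CPM in the knockouts, and the groups did not overlap for Hdac4, Dach2, Runx1, Ncam1 and Gadd45a.

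Hdac4, the class IIa enzyme tied to denervation, was lower in the knockouts. It lies at chr1:91928779-92180341 on the minus strand of GRCm38. Its level in control replicates 1 to 4 was 52.9, 54.7, 92.3 and 58.9 CPM. In knockout replicates 1 to 4 it was 29.4, 29.9, 35.7 and 32.6 CPM. Control replicate 3 stood above the other controls, yet the highest knockout library lay below the lowest control. The mean fell from 64.7 ± 18.6 to 31.9 ± 2.91 CPM (SD, n = 4 each), and the fitted log2 change was -1.02 (SE 0.17, adjusted p = 0.00053). Without control replicate 3 it was -0.80, and it stayed called when any 1 library was left out. With library totals alone it was -0.34 and was not called (adjusted p = 0.059), which is -1.08 relative to the median gene under that scaling.

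The other class IIa genes were not called. Hdac5, which shares targets with Hdac4 in muscle, had 80.7 to 88.6 CPM in controls and 65.4, 67.0, 83.7 and 75.0 CPM in knockout replicates 1 to 4, a log2 fold change of -0.20 (SE 0.086, 95% interval -0.39 to -0.0087, adjusted p = 0.068). Knockout replicate 3 alone lay within the range of the controls, and without it the value was -0.31 and was called (adjusted p = 0.0094). Hdac7, best known from endothelial cells and thymocytes, had 21.5 to 32.7 CPM in controls and 22.4 to 30.5 CPM in knockouts (log2 fold change -0.18, SE 0.14, 95% interval -0.50 to 0.14, adjusted p = 0.30). The endothelial markers beside it were lower, 6 of 8 called lower (21.1% of all genes were) and all 8 with a negative log2 fold change. Their summed level was 351 to 499 CPM in controls and 252 to 285 CPM in knockouts, and their part in the level of Hdac7 was not tested. With library totals alone 0 of these markers were called and Pecam1, Tek, Emcn and Esam were above 0. In bulk muscle, fewer cells of a type and less RNA per cell cannot be told apart. Hdac9, of which a splice form without the catalytic domain is known from muscle, had 3.86 to 6.74 CPM in controls and 4.75 to 7.43 CPM in knockouts (log2 fold change 0.36, SE 0.21, 95% interval -0.11 to 0.83, adjusted p = 0.17). With library totals alone Hdac5 and Hdac7 turned to 0.46 and 0.49, which is -0.27 and -0.24 relative to the median gene.

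Per exon length, Hdac5 was the most abundant of the 4 transcripts and Hdac9 the least in every library. In RPKM, the CPM divided by the exon length in kilobases, Hdac5 had a level of 18.9 ± 0.781 in controls and 16.4 ± 1.90 in knockouts, and Hdac9 had 0.441 ± 0.122 and 0.568 ± 0.116 (SD, n = 4 each). Hdac4 and Hdac7 lay between them and changed places on this scale. Hdac4 stood above Hdac7 in 4 of 4 control libraries (6.53 to 11.4 against 4.33 to 6.60 RPKM, ranges that meet), and below it in 4 of 4 knockout libraries (3.63 to 4.41 against 4.51 to 6.16 RPKM). Some gaps were small, 6.76 against 6.60 RPKM in control replicate 2 and 4.41 against 4.52 in knockout replicate 3. The change of places rests on the division by exon length. In raw counts Hdac4 stayed above Hdac7 in knockout replicates 1, 3 and 4 (706, 866 and 821 against 537, 543 and 584). Knockout replicate 2 had 653 against 667. The share of Hdac4 in the summed level of the 4 genes, which does not depend on the scaling of libraries, was 21.9%, 20.8%, 31.7% and 21.7% in control replicates 1 to 4. In knockout replicates 1 to 4 it was 15.6%, 14.5%, 15.5% and 15.3%. The means were 24.03% ± 5.14 and 15.2% ± 0.493 (SD, n = 4 each; exact two-sided permutation test over 70 assignments, p = 0.0286, the smallest that 4 against 4 allow), a difference of -8.82 percentage points, or -6.27 without control replicate 3. The summed level was 32.9 ± 2.51 RPKM in controls and 25.9 ± 2.12 in knockouts (n = 4 each, exact permutation p = 0.0286), but its difference turned from -7.01 to 6.55 RPKM with library totals alone (exact permutation p = 0.0286).

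**Figure D2:**
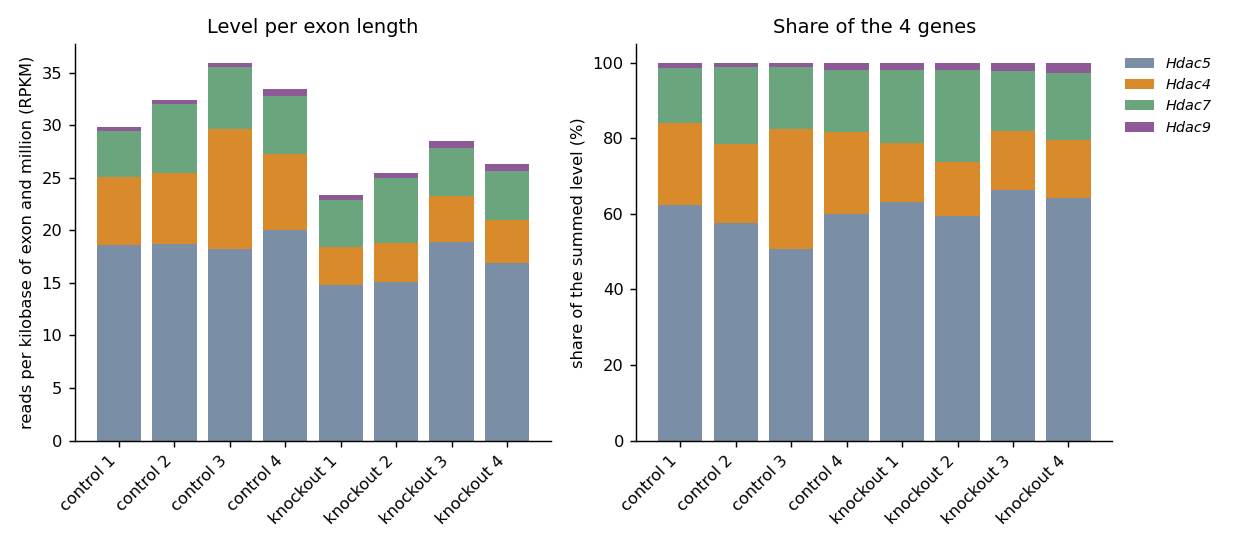
Levels of the class IIa histone deacetylases in each library as stacked bars from 0, in RPKM over TMM-scaled library sizes (left) and as shares of the summed level in percent (right), for Hdac5, Hdac4, Hdac7 and Hdac9 from bottom to top. The Hdac4 band takes 20.8% to 31.7% of a control library and 14.5% to 15.6% of a knockout one.

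Among the 7 other histone deacetylases, 2 rose and 2 fell (median -0.15 on the log2 scale), where 23.6% and 21.1% of all genes did. Hdac1, a nuclear class I enzyme, had a log2 fold change of 0.49 (adjusted p = 0.0021), and Hdac6, the cytoplasmic tubulin deacetylase, of 0.47 (adjusted p = 0.0023, lost without knockout replicate 4). Hdac3, the catalytic partner through which class IIa proteins act, fell by 0.55 on the log2 scale (67.5 ± 4.61 to 46.0 ± 1.95 CPM, SD, n = 4, adjusted p = 8.2e-05), and Hdac11, a class of its own, by 0.64 (adjusted p = 0.0021). Hdac3 and Hdac11 turned to 0.12 and 0.03 with library totals alone, both uncalled.

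Of 11 measured partners of class IIa enzymes, 1 was higher and 4 were lower (median -0.20), where 23.6% and 21.1% of all genes were. Ncor1, a co-repressor that links them to Hdac3, was lower at 151 to 176 CPM in controls and 111 to 124 CPM in knockouts (log2 fold change -0.51, SE 0.07, adjusted p = 0.00015). Mef2d, a DNA-binding partner, had -0.31 (adjusted p = 0.0034), while Mef2a and Mef2c were not called. Of the adaptors that hold phosphorylated class IIa enzymes in the cytoplasm, Ywhaz was higher at 0.91 (adjusted p = 2.4e-05) and Ywhae lower at -0.42 (adjusted p = 0.0065). The calls of Mef2d and Ywhae were each lost with 1 of several libraries left out, and Ncor1, Mef2d and Ywhae turned positive with library totals alone. Mef2a and Mef2c turned from -0.20 and -0.23 to 0.47 and 0.44 under that scaling (edgeR adjusted p = 0.00011 and 0.00067).

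The kinases that can phosphorylate class IIa enzymes moved in both directions, with 3 of 15 measured higher and 9 lower (median -0.52). Over all genes 23.6% were higher and 21.1% lower. Among the calmodulin-dependent kinases, Camk2a fell by 1.90 (745 ± 92.3 to 199 ± 26.2 CPM, adjusted p = 1.3e-06), Camk2g by 1.52 (adjusted p = 3.4e-07) and Camk1 by 0.94 (adjusted p = 8e-06) on the log2 scale. Prkaa2, the AMPK catalytic subunit that predominates in muscle, fell by 1.02 (286 ± 29.4 to 141 ± 17.6 CPM, adjusted p = 2.7e-05), while Prkaa1, the other catalytic subunit, was higher by 0.50 (21.99 ± 1.82 to 31.1 ± 1.78 CPM, adjusted p = 0.0004). The largest rise was that of Sik1, an inducible kinase of class IIa enzymes, with 17.7 ± 1.78 CPM in controls and 61.4 ± 8.39 in knockouts (log2 fold change 1.79, adjusted p = 1e-06). Camk2d was higher at 0.42 (adjusted p = 0.0019, lost without knockout replicate 4). Camk2a, Camk2g, Camk1 and Prkaa2 stayed negative with library totals alone, Camk1 without its call (adjusted p = 0.042).

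Dach2, at chrX:113297510-113836386 on the plus strand, was close to the limit of detection in the knockouts. Its counts were 27, 27, 20 and 42 in control replicates 1 to 4 and 0, 2, 2 and 2 in knockout replicates 1 to 4. On the CPM scale the controls had 2.18, 1.77, 1.43 and 2.65, and the knockouts 0 (which allows up to 0.125 CPM), 0.0916, 0.0826 and 0.0795. All 4 knockout libraries thus lay below the level of 3 counts, and all 4 controls above it. Over the pooled libraries, 116 counts in controls and 6 in knockouts gave a rate 32.0 times higher in controls (exact 95% counting interval 14.3 to 89.0). The fitted log2 fold change was -4.86 (SE 0.45, adjusted p = 1e-05), between -5.06 and -4.48 with each library left out. The low level of Dach2 and that of Hdac4, its repressor in denervated muscle, were seen in the same libraries.

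Dach2 works with the sine oculis homeobox factors (Six2, Six4 and their relatives) and their Eya co-activators, which hold a fast fibre program. Of 9 genes of these families and Dach1, 1 rose and 5 fell, where 23.6% and 21.1% of all genes did. Their median was -0.75 on the log2 scale, against 0.065 for all genes. The co-activator Eya1 had 33.3 to 46.6 CPM in controls and 15.2 to 18.4 CPM in knockouts (log2 fold change -1.19, adjusted p = 1.5e-05). Six4 (-0.75, adjusted p = 3.6e-05) and Eya4 (-0.87, adjusted p = 0.0006) were lower as well, though neither was called with library totals alone.

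Six2 varied among the controls, with 12.6, 14.3, 30.1 and 6.18 CPM in control replicates 1 to 4 and 3.42 to 5.91 CPM in knockouts. Its log2 fold change was -1.71 (SE 0.40, adjusted p = 0.0046) and became -1.19 without control replicate 3, and the call was lost without control replicate 2, knockout replicate 1 or knockout replicate 4 (adjusted p of at most 0.015) or with library totals alone (-1.02, adjusted p = 0.033). Eya3, a co-activator with phosphatase activity, was the only one of the 9 that was higher, at 17.9 to 22.1 CPM in controls and 33.9 to 35.1 in knockouts (0.80, adjusted p = 1.3e-05). Dach1, the paralog of Dach2, had 5.87 to 8.07 and 3.02 to 5.46 CPM and was not called (-0.55, adjusted p = 0.036), nor were Six5 (0.20, adjusted p = 0.37) and Eya2 (-0.65, adjusted p = 0.075, called without control replicate 1). Dach1 and Eya2 turned to 0.10 and 0.016 with library totals alone.

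**Figure D3:**
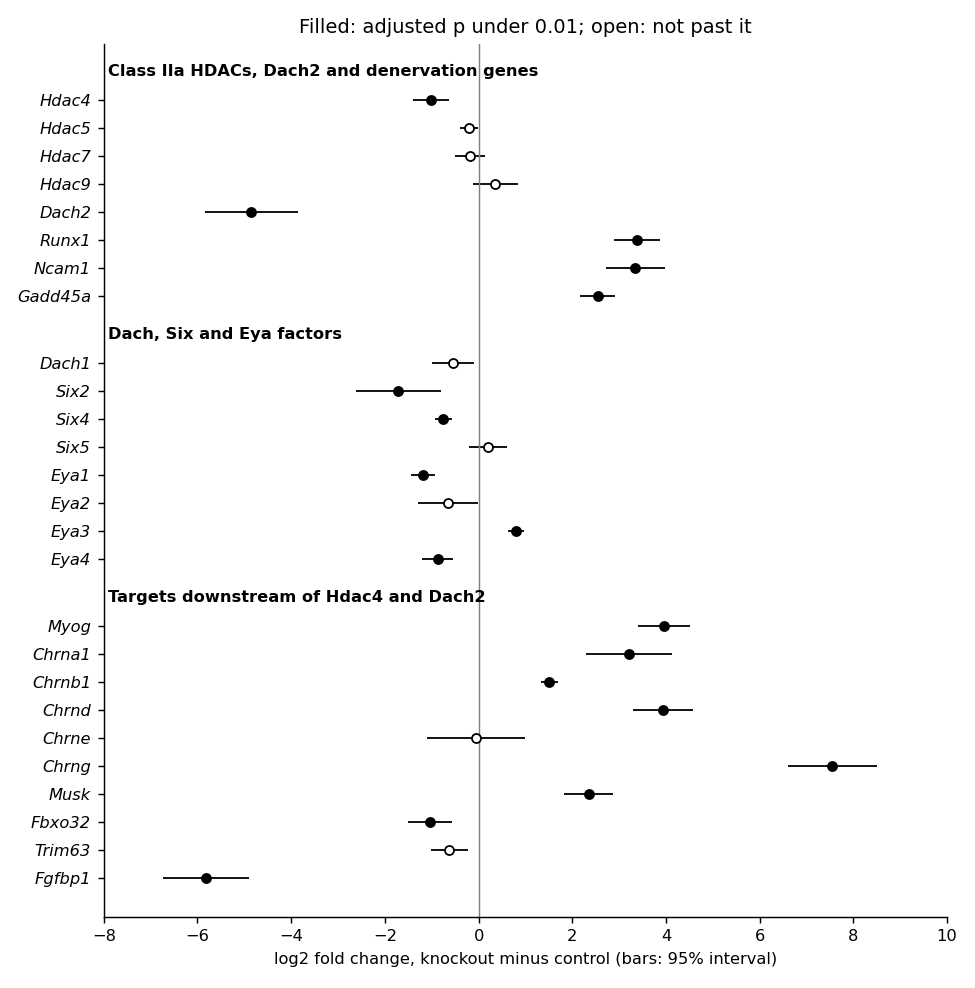
Log2 fold change of knockout against control with its 95% interval (x axis) for the 8 genes, Dach1, the sine oculis and Eya factors and the genes known to lie downstream of Hdac4 and Dach2. Filled points were called at an adjusted p under 0.01 and open points were not. The values run from -5.82 for Fgfbp1 and -4.86 for Dach2 to 7.55 for Chrng.

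Downstream of Dach2, Myog was higher. Its level was 5.66, 9.43, 7.23 and 4.03 CPM in control replicates 1 to 4 and 83.1, 104, 89.4 and 135 CPM in knockout replicates 1 to 4 (log2 fold change 3.96, SE 0.25, adjusted p = 1e-06). The log2 ratio of Myog counts to Dach2 counts, with 0.5 counts added to each, does not depend on library scaling. Control replicates 1 to 4 had 1.36, 2.39, 2.31 and 0.60, and knockout replicates 1 to 4 had 11.96, 9.83, 9.76 and 10.4. The groups lay 8.82 apart (1.67 ± 0.850 against 10.5 ± 1.02, SD, n = 4 each, exact two-sided permutation p = 0.0286). Since Dach2 had 0 to 2 counts in the knockouts, the size of this ratio there rests on the added count.

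Of the 10 genes on the list downstream of Hdac4 and Dach2, 6 were higher and 2 lower (median 1.93). Over all genes 23.6% were higher and 21.1% lower, and the list was chosen with earlier results of these data known. Among the subunits of the acetylcholine receptor, the fetal subunit gene Chrng had 9 counts over the 4 control libraries and 2917 over the knockouts, a rate 196 times higher (exact 95% counting interval 103 to 429). Chrnd (log2 fold change 3.94, adjusted p = 2.4e-06), Chrna1 (3.21, adjusted p = 9.3e-05) and Chrnb1 (1.51, adjusted p = 4.7e-07) were higher too. Chrne, the subunit that replaces the fetal one in adult junctions, had 23.8, 27.6, 28.2 and 3.28 CPM in control replicates 1 to 4 and 16.4 to 25.5 CPM in knockouts and was not called (-0.05, 95% interval -1.10 to 0.998, adjusted p = 0.94). Musk, the receptor kinase that organises the junction, was higher at 4.85 to 12.4 CPM in controls and 32.6 to 43.2 in knockouts (2.35, adjusted p = 1.8e-05).

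Control replicate 4 was the lowest library for several of these junction genes. It had 3.91 CPM of Chrna1 where the other controls had 17.9 to 24.1, 0.882 CPM of Chrnd where they had 2.10 to 3.72, and 3.28 CPM of Chrne. Without it the log2 fold change of Chrna1 was 2.87 and that of Chrne -0.41 (adjusted p = 0.042). The sign of Chrne varied with the library left out, up to 0.14, and was positive with library totals alone (0.63, adjusted p = 0.23), and it was called in none of these. The sum of 9 Schwann cell markers in this library, 46.1 CPM, was also the lowest of the 8, where the other controls had 56.5 to 145 CPM; the part of this in the junction genes was not tested.

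The remaining downstream genes did not rise. Fbxo32, the ubiquitin ligase atrogin-1, had 531 to 898 CPM in controls and 265 to 467 CPM in knockouts, with groups that did not overlap (-1.04, SE 0.21, adjusted p = 0.0018), and was not called with library totals alone (-0.39, adjusted p = 0.091). Trim63, the ligase MuRF1, had 431 to 490 CPM and 211 to 379 CPM and was not called (-0.63, adjusted p = 0.012), though it was without knockout replicate 3 (-0.82, adjusted p = 0.0022), and it turned to 0.02 with library totals alone. Fgfbp1, a secreted carrier of fibroblast growth factors that Hdac4 is known to repress and that favours reinnervation, had 457 counts over the controls and 13 over the knockouts. Its rate was 58.2 times higher in controls (exact 95% counting interval 33.7 to 110), with 9.61, 9.95, 9.02 and 3.78 CPM in control replicates 1 to 4 and 0.0834 to 0.183 CPM in knockouts (log2 fold change -5.82, adjusted p = 1.9e-06). Fgfbp1 and Fbxo32 were thus lower in the libraries in which Myog was higher.

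Runx1, at chr16:92601466-92826074 on the minus strand, encodes a Runt-domain transcription factor that limits wasting of denervated fibres. It had 2.75, 2.09, 3.58 and 3.21 CPM in control replicates 1 to 4. In knockout replicates 1 to 4 it had 24.4, 25.05, 30.8 and 41.5 CPM. Every knockout library was well above every control, and the mean went from 2.91 ± 0.640 to 30.4 ± 7.92 CPM (SD, n = 4 each), a 10.5-fold difference (log2 fold change 3.39, SE 0.22, adjusted p = 1.2e-06). Of 7 partners of Runx factors, 2 were higher and 3 lower (median -0.42), where 23.6% and 21.1% of all genes were. Cbfb, the subunit that Runx proteins need for stable DNA binding, fell by 1.25 on the log2 scale (144 ± 22.4 to 60.5 ± 8.84 CPM, adjusted p = 2.6e-05). Runx2, a paralog of Runx1, was higher at a low level (0.551 to 1.68 CPM on average, log2 fold change 1.62, adjusted p = 0.0016). The co-repressors of the Tle family split, with Tle3 higher at 0.59 (adjusted p = 0.004, a call lost without any 1 of 5 libraries) and Tle4 (-0.77, adjusted p = 0.0002) and Tle1 (-0.55, adjusted p = 0.0023) lower, of which Tle1 turned to 0.12 and Tle4 to -0.11 with library totals alone, both uncalled.

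Runx1 is also made by blood cells, so macrophage and lymphocyte markers were read beside it. Of 8 macrophage markers, 7 had a positive log2 fold change (median 0.76, against 0.065 for all genes). At an unadjusted p under 0.05 in edgeR's test 4 were higher. Only 1 was called, Cd68 (log2 fold change 2.62, adjusted p = 2.4e-05), where 23.6% of all genes were called higher. With library totals alone Adgre1, Csf1r, Mrc1, Lyz2 and C1qa were called higher as well (edgeR adjusted p = 0.0012, 0.0095, 0.0055, 0.0016 and 0.0014). Itgam and Cd163 were not. Their sum was 73.5 to 183 CPM in controls and 146 to 268 CPM in knockouts. Of 8 lymphocyte and natural killer cell markers, 2 were in the table, with a summed level of 0.441 to 2.004 CPM in controls and 0.459 to 0.994 CPM in knockouts. They went opposite ways. Cd3e was called lower (log2 fold change -2.56, adjusted p = 0.005), as were 21.1% of all genes, and this call was lost with 1 of several libraries left out. Cd4 was not called (1.48, adjusted p = 0.046). The part of these cells in the level of Runx1 was not tested.

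Ncam1, at chr9:49502129-49799393 on the minus strand, encodes the neural cell adhesion molecule, which in adult muscle is confined to the junction and spreads over the fibre on denervation. Control replicates 1 to 4 had 10.99, 13.1, 13.5 and 4.60 CPM. Knockout replicates 1 to 4 had 93.3, 136, 97.9 and 99.8 CPM. Control replicate 4 was the lowest of the controls, as it was for several of the junction genes, and knockout replicate 2 the highest of the knockouts. The log2 fold change was 3.34 (10.6 ± 4.12 to 107 ± 19.6 CPM, SD, n = 4 each, SE 0.28, adjusted p = 6.1e-06), and 3.09 without control replicate 4.

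Satellite cells and Schwann cells also make Ncam1. Of 7 satellite cell markers, 3 were higher and 2 lower, where 23.6% and 21.1% of all genes were. Their sum was 72.6 to 88.9 CPM in controls and 84.9 to 116 CPM in knockouts. Of 9 measured Schwann cell markers 0 were called (2 higher and 0 lower at an unadjusted p under 0.05 in edgeR's test), with a sum of 46.1 to 145 CPM and 72.0 to 117 CPM. The part of either cell type in the level of Ncam1 was not tested. Of 9 measured partners and modifiers of Ncam1, 4 were higher and 3 lower (median -0.01), where 23.6% and 21.1% of all genes were. St8sia2, which adds polysialic acid to Ncam1 during development, was higher at 0.0808 to 0.315 CPM in controls and 1.40 to 3.62 in knockouts (log2 fold change 3.38, adjusted p = 0.00019). St8sia4, the polysialyltransferase of adult tissue, was lower (-0.79, adjusted p = 0.0014). Gdnf, a neurotrophic factor for motor neurons that also binds Ncam1, was higher (0.684 ± 0.157 to 2.93 ± 0.487 CPM, log2 fold change 2.08, adjusted p = 3.2e-05), as were the adhesion molecule Cdh2 (2.0, adjusted p = 0.00021) and the kinase Fyn (1.38, adjusted p = 5.7e-05). Ret, the signalling receptor of Gdnf (-1.24, adjusted p = 0.0025), and Fgfr1 (-0.75, adjusted p = 5.5e-05) were lower. With library totals alone the calls of St8sia4 (-0.12, adjusted p = 0.53), Ret (-0.58, adjusted p = 0.091) and Fgfr1 (-0.08, adjusted p = 0.33) ended.

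Gadd45a, at chr6:67035096-67037407 on the minus strand, encodes a stress-inducible nuclear protein known to promote fibre atrophy and, in denervation, to lie downstream of Hdac4. It had 36.8, 31.4, 35.6 and 28.2 CPM in control replicates 1 to 4. In knockout replicates 1 to 4 it had 207, 132, 227 and 201 CPM. All knockouts were above all controls, with a mean of 33.0 ± 3.96 against 192 ± 41.1 CPM (SD, n = 4 each), a 5.82-fold difference (log2 fold change 2.54, SE 0.17, adjusted p = 1.2e-06). Its span shares 809 bases with E230016M11Rik on the opposite strand, and whether reads were counted by strand is not stated. E230016M11Rik had a mean of 0.464 CPM in controls and 2.98 CPM in knockouts, far below Gadd45a.

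The paralogs of Gadd45a did not move with it. Gadd45g had 123, 107, 37.5 and 85.2 CPM in control replicates 1 to 4 and 19.1 to 44.3 CPM in knockouts, groups that overlapped (log2 fold change -1.58, adjusted p = 0.0032, lost without control replicate 2, knockout replicate 2 or knockout replicate 4). Gadd45b was not called (-0.69, adjusted p = 0.046). Of the 11 genes of the family and its stress pathway, Gadd45a not included, 6 were higher and 3 lower (median 0.75). Over all genes 23.6% were higher and 21.1% lower. The rises included Cdkn1a, the cell cycle inhibitor p21 and a known target of Gadd45a in muscle (22.8 ± 6.25 to 274 ± 32.6 CPM, 3.58, adjusted p = 4.1e-07), and the stress factors Ddit3 (2.62, adjusted p = 5.9e-07), Atf3 (1.74, adjusted p = 0.0027) and Atf4, which induces Gadd45a in fasted and aged muscle (173 ± 17.2 to 413 ± 35.7 CPM, 1.26, adjusted p = 3e-06). Lower were the kinases that Gadd45 proteins act on, Map3k4 (-0.96, adjusted p = 1.3e-05) and Mapk14, or p38α (213 ± 11.97 to 63.6 ± 8.25 CPM, -1.75, adjusted p = 5.9e-07). With library totals alone the calls of Gadd45g (-0.93, adjusted p = 0.034) and Map3k4 (-0.29, adjusted p = 0.028) ended.

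A list of 20 genes that respond to denervation was read beside these. In it 16 genes rose and 2 fell, where 23.6% and 21.1% of all genes did. The median was 3.12 on the log2 scale against 0.065 for all genes. The list was chosen with earlier results of these data known, so these values describe its genes and are no test of the list. Fetal and embryonic muscle genes led it: Chrng (7.55), Sln, the inhibitor of the calcium pump (0.315 to 0.646 CPM in controls, 52.6 to 114 CPM in knockouts, 7.33, adjusted p = 3.2e-07), Myh3, the embryonic myosin heavy chain (2.55 ± 0.310 to 312 ± 149 CPM, 6.92, adjusted p = 6.5e-07), and Myh8, the perinatal one (6.41 ± 1.01 to 673 ± 271 CPM, 6.72, adjusted p = 2.2e-07). Cd24a, a surface glycoprotein (-1.63, adjusted p = 2.1e-05), and Fbxo32 were lower, and Myod1 (0.14, adjusted p = 0.68) and Trim63 were not called. The list shares 8 genes with the 10 downstream of Hdac4 and Dach2, so these counts are not independent of those above.

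**Figure D4:**
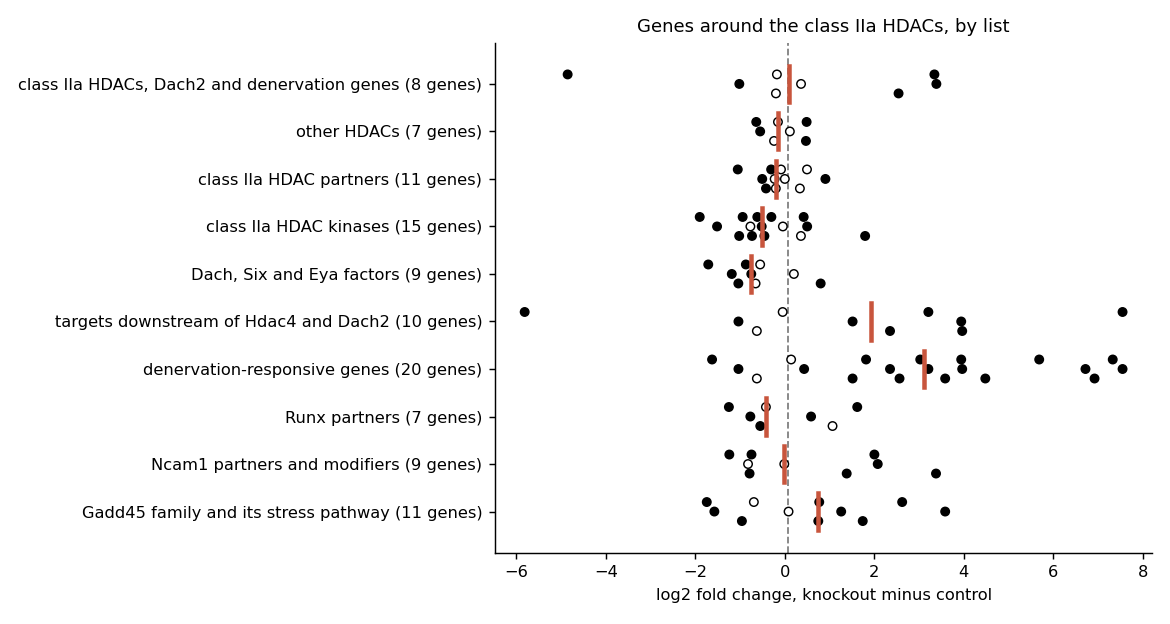
Log2 fold change of knockout against control (x axis) for every measured gene of the 10 lists, filled where called at an adjusted p under 0.01. The red bar is the median of a list and the dashed line the median of all genes, 0.065. The denervation-responsive genes have the highest median, 3.12, and the sine oculis and Eya factors with Dach1 the lowest, -0.75. The lists were chosen with earlier results of these data known, so the medians are a description.

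The genes whose log2 CPM went most closely with that of Hdac4, Dach2 and Runx1 over the 8 libraries, among genes with a mean of at least 1 CPM, are given as a description, since all share the split between groups. For Hdac4 they were Tusc2 (Pearson r 0.991), Rnf146 (0.985) and Cpxm2 (0.984), which were also highest in control replicate 3. The log2 fold changes of Tusc2 and Rnf146, -0.46 and -0.50, turned to 0.21 and 0.18 with library totals alone. For Dach2 they were 1700025G04Rik (0.993), Barx2 (0.992) and Dusp1 (0.991). For Runx1 they were Slc39a6 (0.998), Utp18 (0.996) and Ppp1r15a (0.996), the last the stress-induced subunit of an eIF2α phosphatase, with 21.1 to 29.7 CPM in controls and 94.8 to 151 CPM in knockouts.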

How the data were processed

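Polyadenylated RNA of QF from 4 knockout and 4 control mice was sequenced from directional libraries. The raw counts per gene were deposited by the authors, who, per the labels, used bcl2fastq 2.20.0.422, cutadapt and STAR 2.5.4b on GRCm38, and left out genes with fewer than 50 reads in total. The lowest total in the table is 51. The authors also deposited FPKM values and their own DESeq2 1.32.0 results (the mean signal of each gene, log2 fold changes, the Wald score, p-values and adjusted p-values), which were not used, and exon widths, which were used for levels per length. Whether strand was used in counting is not given in the sources used here.

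All 14012 genes were tested with edgeR 4.0.16 (glmQLFit and glmQLFTest, TMM factors, R 4.3.3), with no term but the group, adjusted by Benjamini-Hochberg over all genes, at an adjusted p under 0.01. Confidence intervals are at 95%. Totals of 16017565 to 20361144 counts per library make 3 counts worth 0.119 to 0.242 CPM. Values that each library gives once were tested by permutation, exact over the 70 assignments (scipy 1.17.1). Replicates differed by more than counting noise and were kept apart in the edgeR and permutation tests. Only the rates of Dach2, Chrng, Fgfbp1 and Linc-md1 pool the counts of each group. Their exact intervals hold counting error alone and leave out the spread between mice. The labels number the mice but do not pair them. Only the labels say that each library is another mouse, and p-values measure the spread between libraries.

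Alternatives were RLE and upper-quartile factors, library totals alone, filterByExpr, DESeq2 1.42.0, the replicate number as a block and each library left out in turn. The scripts were tested on simulated data. The genes, the 9 lists of related genes and the 8 marker lists were chosen with earlier results of these data known. Named are the 8 genes, the genes of the downstream and the sine oculis and Eya lists, and up to 4 called genes from each end of every other list. For Hdac4, Dach2 and Runx1 the 3 genes most alike were named. Mef2a, Mef2c, Gadd45b, Myod1 and E230016M11Rik were named after their values were seen, as were single genes of the marker lists. A gene in each of 2 lists enters the counts but is not reported here. Promoter windows come from RefSeq GRCm38.p6.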

Additional observations from a re-analysis of the deposited data

Results flagged for a closer look

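Within the groups of 4 libraries, 60 sets of values were checked for a library far from the rest (by Dixon's test of the gap to its nearest neighbour), of which chance flags about 1 in 20, and 7 were found. Hdac4 in control replicate 3 was 92.3 CPM where the other controls had 52.9 to 58.9, and its share among class IIa transcripts there was 31.7% where the others had 20.8% to 21.9%. The same library had the lowest summed level of the 6 adipocyte markers, 228 CPM where the other controls had 682 to 995, whose part in the value of Hdac4 was not tested. Control replicate 4 had 3.78 CPM of Fgfbp1 (9.02 to 9.95 in the other controls) and 490 CPM of Trim63 (431 to 437 in the others). Among the knockouts, replicate 2 had 30.5 CPM of Hdac7 (22.4 to 23.2 in the others) and 136 CPM of Ncam1 (93.3 to 99.8 in the others). Dach2 in knockout replicate 1 was 0, where the others had 2 counts each, a difference within counting error.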

How the results depend on the processing

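Library totals alone changed most. Hdac4 became -0.34 (not called), Hdac5 0.46 and Hdac7 0.49 (both reversed) and Hdac9 1.02 (called), so 6 of the 8 genes were called, while Dach2, Runx1, Ncam1 and Gadd45a kept their calls. Over all genes 8498 were then higher and 873 lower, and the summed class IIa level turned to a difference of 6.55 RPKM. The counts of higher and lower genes became 5 and 0 for other HDACs, 8 and 0 for partners, 5 and 3 for kinases and 2 and 2 for Dach1 with the sine oculis and Eya factors. The lower genes became 1 for downstream targets, 1 for denervation-responsive genes, 1 for Runx partners, 0 for Ncam1 partners and 1 for the Gadd45 pathway. DESeq2 and the replicate block each gave 2 higher partners. RLE factors, upper-quartile factors, filterByExpr and DESeq2 changed no call of the 8 genes. Same-numbered libraries deviated together with correlations from 0.0031 to 0.42, all positive but not above 0.1 in every pair. Of the 8 libraries, 6 were most like their own number. These values do not settle whether the numbers pair the mice. The labels state no pairing, so the main tests used none and the block is given as an alternative. The replicate block gave 6123 called genes against 6265, kept the 5 calls, and left the share of Hdac4 (-8.82), the summed level (-7.01) and the Myog to Dach2 ratio (8.82) at an exact permutation p of 0.125, the smallest that 4 pairs allow. With each library left out, Hdac5 ranged from -0.31 (called, without knockout replicate 3) to -0.16, the called genes from 5196 to 5867, the higher other HDACs from 1 (without knockout replicate 4) to 2, the lower partners from 2 (leaving out control 3 or knockout 1, 2 or 4) to 4 and the higher Runx partners from 1 (leaving out control 1 or 3 or knockout 1, 2 or 4) to 2. The share of Hdac4 then ranged from -9.89 to -6.27 percentage points, the summed level from -8.03 to -6.00 RPKM and the ratio from 8.33 to 9.07, where 3 against 4 allow no exact p under 0.0571. Depth limits Dach2, Fgfbp1 and Chrng, whose low groups hold 6, 13 and 9 counts in all. Why each setting changed a value was not tested, apart from the smaller number of samples.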

Other observations

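Host transcripts of muscle microRNAs that are known to target Hdac4 were read after their values were seen, and none of the microRNAs themselves was measured. Linc-md1, a non-coding RNA at chr1:20669882-20682958 of GRCm38 whose span holds the Mir206 and Mir133b hairpins on the same strand, had 0, 0.196, 0.143 and 0.126 CPM in control replicates 1 to 4. In knockout replicates 1 to 4 it had 5.25, 6.18, 6.81 and 9.94 CPM. This was 7 counts against 676, a rate 58.3 times higher in the knockouts (exact 95% counting interval 28.2 to 146), with an adjusted p of 1.8e-06 in edgeR's quasi-likelihood test. Mir1a-1hg, a host transcript of another muscle microRNA cluster, went the other way, with 35.1 to 55.9 CPM in controls and 8.23 to 16.6 CPM in knockouts (log2 fold change -1.70, SE 0.21, adjusted p = 7.6e-05 in the same test). The ranges of neither transcript overlapped between the groups, as is so for 53.4% of all genes, and both kept their direction with each library left out and with library totals alone.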
